A study of Mus musculus with 48 samples.

Results

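Stored triglyceride leaves a fat droplet by way of a short series of enzymes, and this account follows 10 mouse genes that encode or control them: Pnpla2, Pnpla3, Lipe, Mgll, Abhd5, G0s2, Lpl, Lipa, Ces1d and Ces1f. They were chosen by symbol, and all 10 were found among the 56748 gene identifiers of the count files and passed the filter on low counts in every fit. In brown fat, 4 of the 10 (Pnpla3, Mgll, Abhd5 and Lipa) had lower mRNA in warm-housed than in cool-housed mice of both genotypes. Ces1d did so in wild-type mice. Of all 18032 genes tested, 3003 were called lower in wild-type and 1537 in knockout mice. Called in either direction were 32.5% in wild-type and 15.2% in knockout mice. The share of all genes called lower in both genotypes is not given here. The 4 calls in knockout mice were lost when the libraries rich in muscle markers were left out, which leaves 2 libraries a group. In liver the same housing contrast called none of the 10, beside 0.0227% of all genes in wild-type and 0.114% in knockout mice. In epididymal fat it also called none, beside 0% and 1.74% of all genes. Between mice with and without hepatocyte angiotensinogen 1 of the 10 was called, Lipa in the liver of warm-housed mice, where 3.18% of all genes were, and that call was lost in 7 of 21 alternatives.

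Intracellular lipolysis runs in steps. ATGL, encoded by Pnpla2, removes the first fatty acid from triglyceride, with CGI-58 (Abhd5) as its activating partner and G0s2 as its inhibitor, HSL (Lipe) acts on diacylglycerol, and monoacylglycerol lipase (Mgll) releases the last fatty acid and glycerol. Cold drives this route in brown fat through sympathetic nerves and cAMP, and the fatty acids fuel heat production. Pnpla3 is the closest relative of Pnpla2 and sits on lipid droplets, where it is best known from a variant tied to fatty liver. Lipoprotein lipase (Lpl) works outside the cell on the capillary wall, lysosomal acid lipase (Lipa) acts inside lysosomes, and Ces1d and Ces1f are carboxylesterases of the endoplasmic reticulum with triglyceride hydrolase activity.

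Bulk RNA was sequenced from 3 tissues of male mice: the liver, brown fat (BAT, brown adipose tissue) and the white fat around the epididymis (eWAT). Wild-type mice (hepAGT+/+, here WT) and their littermates without angiotensinogen in hepatocytes (hepAGT-/-, here KO) all ate a Western diet, TD.88137 with 21% milk fat and 0.2% cholesterol, over 12 weeks. Cages stood either at 20 to 22 °C, which is room temperature (RT), or at 30 °C, which is thermoneutral (TN) in that a mouse need not spend energy on keeping warm. The 12 groups of tissue, genotype and housing hold 4 libraries each, 48 in all, so no group without the diet stands beside them. The labels do not give the age of the mice or the driver of the deletion. They give each library the number of a biological replicate, which is the replicate used here.

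Totals ran from 23.7 to 36.5 megacounts per library in liver, from 25.3 to 39.4 in BAT and from 28.7 to 43.7 in eWAT. Agt, the deleted gene, lay between 276 and 504 CPM (counts of a gene per megacount of its library) in the 8 WT livers and between 125 and 207 CPM in the 8 KO livers. Every KO liver was below every WT liver, and the part of Agt that was removed is not given. Summed hepatocyte markers (8 genes, among them Alb and Apoa1) reached 61273 to 101107 CPM in liver, but also 649 to 7402 CPM in eWAT and 11 to 3048 CPM in BAT. Mature adipocyte markers (8 genes) summed to at least 25030 CPM in eWAT and to at least 8866 CPM in BAT. Brown adipocyte markers (8 genes, Ucp1 among them) summed to 7057 to 11719 CPM in BAT at RT and to 2670 to 6745 CPM at TN. Skeletal muscle markers (8 genes) passed 1000 CPM in 6 BAT libraries, which were KO RT replicates 14 and 19, WT TN replicates 6 and 24 and KO TN replicates 2 and 5. Epididymis markers (8 genes) summed to 1105 CPM in eWAT WT RT replicate 18 and to at most 11.3 CPM in every other library. The part of epididymis RNA in the eWAT results was not tested. In bulk tissue, fewer cells of a type and less RNA per cell cannot be told apart.

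In the GENCODE M21 annotation of GRCm38, Ces1d (chr8:93166068-93197838) and Ces1f (chr8:93256236-93279747) are neighbours on the - strand, and Lpl lies on the same chromosome (chr8:68880491-68907448, + strand). The exons of Pnpla3 overlap those of Gm49513 on the same strand, and the exons of Lipe, Mgll and Abhd5 overlap those of 4732471J01Rik, Gm26588 and A730085K08Rik on the opposite strand. Whether counting used the strand is not given in the sources used here, so reads of such partners cannot be told apart.

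Promoter sequence from RefSeq (GRCm38.p6) was available for 7 of the 10 genes: Pnpla2, Pnpla3, Lipe, Mgll, Abhd5, G0s2 and Lipa. The windows shown are the 250 bases before the annotated start of the 4 genes that were lower in both genotypes in warm-housed BAT, and of Pnpla2, which was not, each read 5′ to 3′ on the gene's strand. Capitals mark the motifs searched on both strands after the sequences had been seen: the cAMP response element TGACGTCA, its 5-base short site TGACG, the E-box CACGTG, and the nuclear receptor repeat DR1. The full element and its short sites overlap.
Pnpla3 (chr15:84167566-84167815, + strand): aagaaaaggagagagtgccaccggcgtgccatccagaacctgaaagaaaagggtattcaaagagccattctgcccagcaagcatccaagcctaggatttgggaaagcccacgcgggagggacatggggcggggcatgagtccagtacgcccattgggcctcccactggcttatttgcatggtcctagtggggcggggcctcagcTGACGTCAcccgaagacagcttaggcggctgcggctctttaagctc
Abhd5 (chr9:122351366-122351615, + strand): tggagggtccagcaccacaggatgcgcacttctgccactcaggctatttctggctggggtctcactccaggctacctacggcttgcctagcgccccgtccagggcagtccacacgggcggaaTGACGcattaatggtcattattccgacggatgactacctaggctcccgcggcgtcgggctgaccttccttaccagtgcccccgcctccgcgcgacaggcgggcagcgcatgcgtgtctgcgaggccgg
Mgll (chr6:88724162-88724411, + strand): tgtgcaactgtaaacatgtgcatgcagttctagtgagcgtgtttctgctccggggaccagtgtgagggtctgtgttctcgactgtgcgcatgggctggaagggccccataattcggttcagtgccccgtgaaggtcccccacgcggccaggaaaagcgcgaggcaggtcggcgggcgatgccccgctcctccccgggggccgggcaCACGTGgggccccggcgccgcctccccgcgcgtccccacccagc
Lipa (chr19:34527475-34527724, - strand): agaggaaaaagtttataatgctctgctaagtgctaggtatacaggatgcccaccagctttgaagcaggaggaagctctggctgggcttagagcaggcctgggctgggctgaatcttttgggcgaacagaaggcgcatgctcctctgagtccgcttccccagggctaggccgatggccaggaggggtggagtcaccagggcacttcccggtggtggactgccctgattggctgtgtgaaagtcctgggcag
Pnpla2 (chr7:141454938-141455187, + strand): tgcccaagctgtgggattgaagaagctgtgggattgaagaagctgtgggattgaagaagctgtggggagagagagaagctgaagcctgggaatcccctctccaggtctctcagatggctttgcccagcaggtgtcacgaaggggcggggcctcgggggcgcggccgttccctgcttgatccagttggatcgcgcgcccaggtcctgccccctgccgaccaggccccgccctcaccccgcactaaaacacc

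Pnpla3 held the full element at 46 to 39 bases before its start, and TGACGTCA was present in 1.55% of the 32851 windows of this length. Abhd5 held a short site at 128 to 124 bases, as did 17.8% of all windows. Mgll held an E-box at 44 to 39 bases, against 6.02% of all windows, and a window of Lipe held another at 155 to 150 bases. G0s2 had a short site at 246 to 242 bases. The windows of Lipa and Pnpla2 held none of these letters, and DR1 was in 0.0335% of windows and in none of these 7 genes. A match describes letters and was not tested for binding.

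Levels differed widely between tissues. Levels between genes are compared as CPM per kilobase of exon, averaged over the 16 libraries of a tissue. In BAT the leading gene was Pnpla2 at 647 CPM per kilobase, ahead of Ces1d at 408, Lpl at 308 and G0s2 at 290.5. In eWAT Lpl led with 1466 CPM per kilobase, followed by Pnpla2 at 525, Ces1d at 427, G0s2 at 330.4 and Lipe at 300. In liver Ces1d came first at 413 CPM per kilobase, then G0s2 at 184 and Ces1f at 146.5, while Lipe, at 4.02, was last. Both adipose depots had Pnpla2 and Lpl near the top, and in liver a carboxylesterase and the ATGL inhibitor led.

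**Figure D1:**
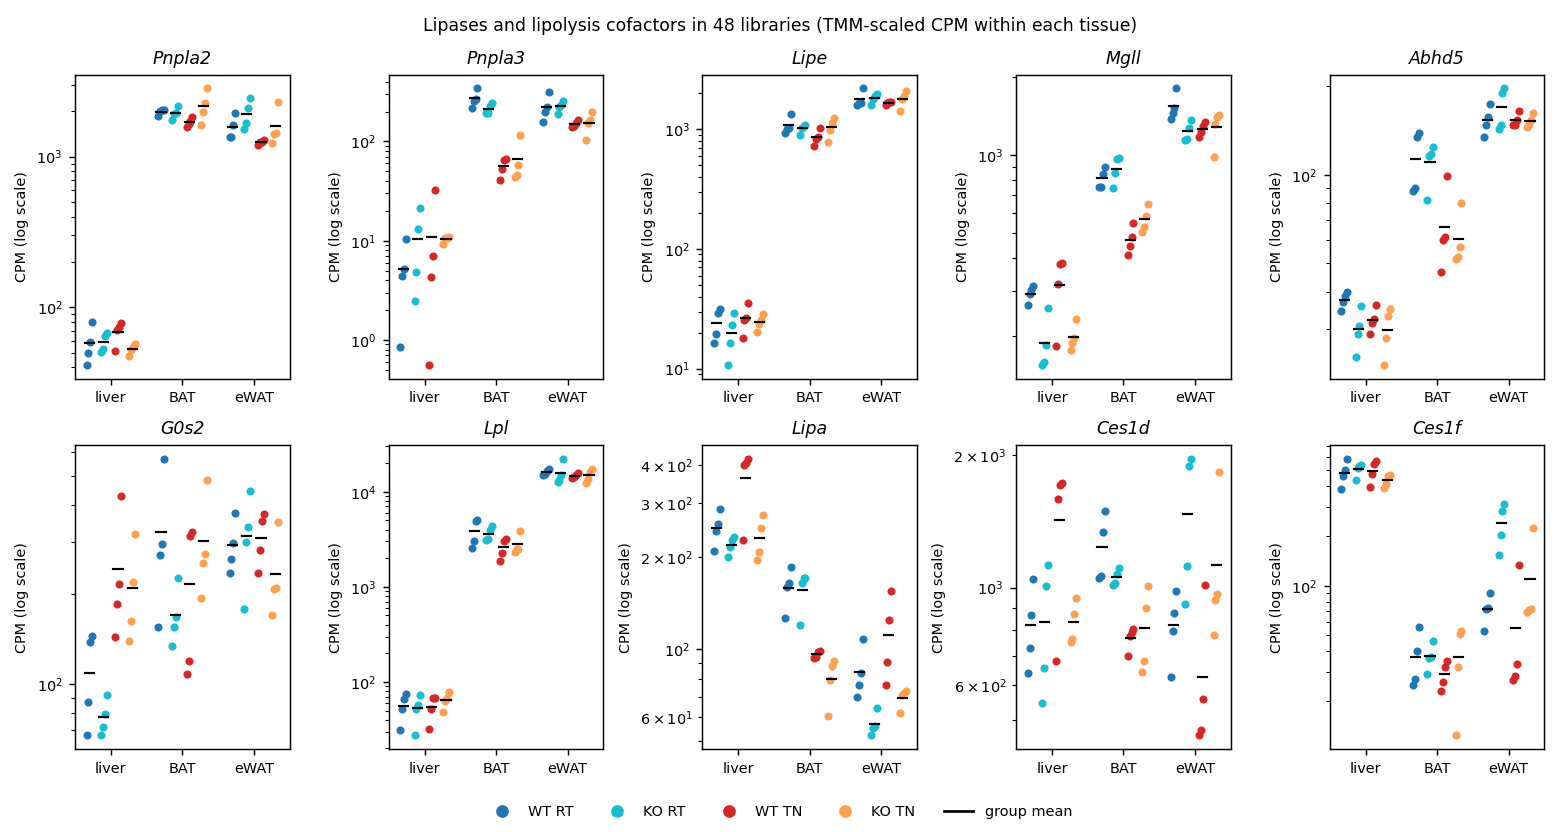
Level of each of the 10 genes in the 48 libraries, in TMM-scaled CPM within a tissue (y axis, log scale), by tissue (x axis) and by genotype and housing (colour); points are libraries and bars are group means. Pnpla3 in BAT separates into RT libraries at 192 CPM or more and TN libraries at 117 CPM or less, while Lpl differs mainly between tissues.

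Differences between tissues were tested over all 48 libraries, averaged over genotype and housing, on a scaling shared by the tissues. Relative to the CPM printed here, that scaling multiplies liver values by 1.16, BAT values by 1.07 and eWAT values by 0.804. Between liver and eWAT all 10 genes differed (edgeR, adjusted p under 0.05), 7 lower and 3 higher in liver, where 73.8% of all genes tested differed. Lpl was 187-fold lower in liver than in eWAT (log2 difference -7.55, SE 0.17), Lipe 52-fold lower and Pnpla2 18.3-fold lower. Pnpla3 was 14.5-fold, Mgll 3.77-fold and Abhd5 3.39-fold lower in liver. Lipa was 4.81-fold higher in liver than in eWAT and Ces1f 6.87-fold higher, whereas Ces1d was only 1.43-fold higher. In the CPM printed here Ces1d averaged 979 CPM in liver and 1012 CPM in eWAT, so its direction depended on the scaling. The weakest of the 10 was G0s2, 1.37-fold lower in liver (adjusted p = 0.0268), and its call was lost without eWAT KO RT replicate 10 (adjusted p = 0.0541) or eWAT KO TN replicate 21 (0.0579). The call was also lost with the replicate number as a block (0.142).

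Between liver and BAT 9 of 10 genes differed, 7 lower and 2 higher in liver, beside 68.6% of all genes. Lpl was 51.6-fold lower in liver, Lipe 39.1-fold lower, Pnpla2 30.2-fold lower and Pnpla3 12.6-fold lower. Mgll was 2.51-fold, Abhd5 2.41-fold and G0s2 1.56-fold lower. Ces1f was 14.9-fold higher in liver than in BAT, and Lipa 2.40-fold higher (adjusted p of at most 0.00228 for the 9 genes). Ces1d did not differ beyond its spread (log2 difference 0.12, SE 0.13, adjusted p = 0.436).

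The 2 adipose depots were closer to each other, with 8 of 10 genes different, 3 higher and 5 lower in BAT, beside 60.3% of all genes. Pnpla2 was 1.65-fold higher in BAT than in eWAT (log2 difference 0.73, SE 0.09) and Lipa was 2.00-fold higher (log2 difference 1.00, SE 0.09). Lpl was 3.63-fold lower in BAT, Ces1f 2.17-fold lower, Mgll lower by a log2 difference of -0.59, Abhd5 1.40-fold lower and Lipe 1.33-fold lower. Pnpla3 (log2 difference -0.20, SE 0.29) and G0s2 (0.19, SE 0.18) did not differ beyond their spread. The higher Ces1d of BAT (log2 difference 0.39, adjusted p = 0.0115) was no longer called without BAT KO TN replicate 5 (adjusted p = 0.0536). In the CPM printed here Ces1d averaged 966 CPM in BAT and 1012 CPM in eWAT, so this direction too depended on the scaling.

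In BAT, several of the 10 genes had less mRNA under thermoneutral housing, among them the ATGL activator Abhd5. Pnpla2 and Lipe, which encode ATGL and HSL, did not pass the test. In WT mice 5 of the 10 genes were lower at TN and none was higher, beside 32.5% of all genes called in either direction. In KO mice 4 were lower and none higher, beside 15.2% of all genes. The median log2 change of the 10 genes was -0.63 in WT and -0.38 in KO, against 0.112 and 0.040 over all genes tested. The interaction of genotype and housing called none of the 10, and 0% of all genes, so the lists of WT and KO were not shown to differ.

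Pnpla3 changed the most. Its level in WT BAT was 343, 219.5, 258 and 271 CPM at RT and 40.5, 65.1, 52.6 and 66.4 CPM at TN. In KO BAT it was 194, 192, 226 and 243 CPM at RT and 58.1, 117, 43.8 and 45.8 CPM at TN. The RT and TN libraries did not overlap in either genotype. It fell 4.86-fold in WT (log2 fold change -2.28, SE 0.27, adjusted p = 1.76e-05) and 3.23-fold in KO (-1.69, SE 0.27, adjusted p = 0.000394).

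Mgll, the enzyme of the last step, stood at 846, 900.0, 753 and 755 CPM in WT BAT at RT and at 547, 414, 446 and 485 CPM at TN. In KO BAT it stood at 746, 963, 971 and 856 CPM at RT and at 504, 529.5, 581 and 648 CPM at TN. Again no TN library reached an RT library. The fall was 1.72-fold in WT (log2 fold change -0.78, SE 0.15, adjusted p = 0.000677) and 1.56-fold in KO (-0.64, SE 0.15, adjusted p = 0.00631).

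Abhd5, the activator of ATGL, read 88.2, 139, 135 and 90.3 CPM in WT BAT at RT and 61.6, 46.6, 59.8 and 98.8 CPM at TN. In KO BAT it read 82.0, 124, 118 and 116 CPM at RT and 52.4, 51.8, 56.6 and 80.3 CPM at TN. The groups overlapped in WT through 1 TN library (replicate 24) and did not overlap in KO. Abhd5 fell 1.69-fold in WT (log2 fold change -0.76, SE 0.23, adjusted p = 0.0151) and 1.83-fold in KO (-0.87, SE 0.23, adjusted p = 0.0134). The WT call was lost when any of WT RT replicates 15 and 17 or WT TN replicates 1, 6 and 7 was left out (adjusted p of 0.055, 0.053, 0.0572, 0.0756 and 0.0614). The KO call was lost without KO TN replicate 3 (adjusted p = 0.0527) or 4 (0.0561).

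Lipa, the acid lipase of lysosomes, was at 126, 186, 165 and 159 CPM in WT BAT at RT and at 97.7, 94.7, 93.5 and 98.9 CPM at TN. In KO BAT it was at 120.4, 170.3, 171 and 164 CPM at RT and at 60.4, 91.3, 79.4 and 88.1 CPM at TN. All TN libraries lay below all RT libraries. Lipa fell 1.65-fold in WT (log2 fold change -0.73, SE 0.16, adjusted p = 0.00196). In KO the log2 fold change was -0.97 (SE 0.16, adjusted p = 0.000484). The interaction did not call Lipa, so the genotypes were not shown to differ. Macrophage markers moved the other way in the same libraries: 8 of 9 were called higher at TN in each genotype, and their sum went from 41.1 to 110 CPM at RT in WT to 187 to 458 CPM at TN, and in KO from 49.9 to 54.5 CPM to 170 to 235 CPM. Their part in the level of Lipa was not tested.

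Ces1d read 1054, 1491, 1334 and 1061 CPM in WT BAT at RT and 775, 699, 792 and 805 CPM at TN, with no overlap. It fell 1.61-fold there (log2 fold change -0.69, SE 0.17, adjusted p = 0.00451). In KO BAT it read 1023, 1110, 1074 and 1011 CPM at RT and 644, 898, 681 and 1008 CPM at TN, where it did not pass the test (-0.39, SE 0.17, adjusted p = 0.136). The difference between the genotypes was 0.30 on the log2 scale (SE 0.24, adjusted p = 0.649), so it was not shown to depend on genotype.

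The remaining BAT genes missed the threshold. Lpl had a mean of 3878 ± 1254 CPM (SD, n = 4) in WT at RT and 2599 ± 638 CPM at TN (log2 fold change -0.58, adjusted p = 0.0817), and it was called without WT RT replicate 12 (adjusted p = 0.0245). Pnpla2 stood at 1866, 2015, 2028 and 2052 CPM in WT at RT and at 1844, 1563, 1651 and 1734 CPM at TN, which did not overlap but differed by only -0.23 (SE 0.17, adjusted p = 0.303). In KO the mean of Pnpla2 was 1948 ± 162 CPM at RT and 2178 ± 518 CPM at TN. Lipe changed by -0.32 in WT and by 0.02 in KO, and Ces1f by -0.35 and by less than 0.01. G0s2, the inhibitor of ATGL, varied widely, from 156 to 569 CPM within WT at RT. Its housing effect was -0.58 in WT and 0.82 in KO, a difference of 1.40 (SE 0.61) that did not pass the test over all genes (adjusted p = 0.479).

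**Figure D2:**
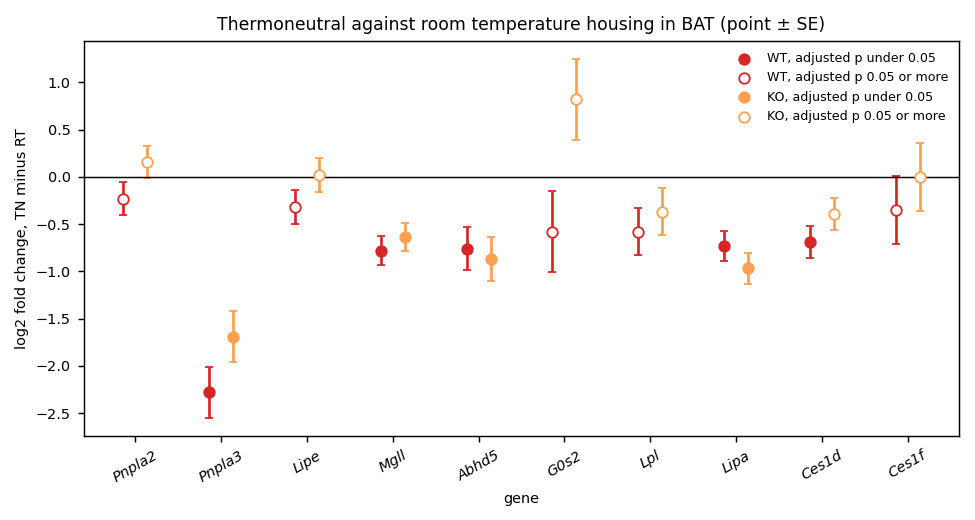
Log2 fold change of each gene in BAT at TN against RT (y axis) with its standard error, in WT and KO; filled points have an adjusted p under 0.05. Pnpla3 lies lowest in both genotypes, at -2.28 and -1.69, and Mgll, Abhd5 and Lipa are called in both.

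The BAT result was also computed without the 6 libraries rich in muscle markers. There the same 5 of 10 genes were called in WT, where 4 RT and 2 TN libraries remained, with Pnpla3 at -2.54 and Mgll at -0.70. Of all 18565 genes tested, 5025 were called in that contrast. In KO, where 2 libraries then remained per housing, none of the 10 was called: Pnpla3 was at -1.22 (adjusted p = 0.09), Mgll at -0.58 (0.173), Abhd5 at -0.89 (0.0627) and Lipa at -0.73 (0.0841). The number of all genes called in KO was then 867 of 18565. Muscle content and the smaller number of libraries cannot be told apart as sources of the lost calls. Brown adipocyte markers were lower at TN for 4 of 8 genes in each genotype. Of 6 endothelial markers, 4 were called higher at TN in WT and none in KO, with sums of 186 to 489 CPM at RT and 400 to 1044 CPM at TN in WT and of 448 to 942 CPM and 805 to 1364 CPM in KO. The part of these cell types in the results was not tested.

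Other genes of lipid breakdown in BAT are given from lists by role, to be read beside the 32.5% (WT) and 15.2% (KO) of all genes called (3003 lower and 2864 higher at TN in WT, 1537 lower and 1198 higher in KO). Of 19 other lipid hydrolases tested, 3 were lower and 1 higher at TN in each genotype. Abhd6, a monoacylglycerol lipase, was at -1.51 in WT and -1.22 in KO, Ddhd2 at -1.39 and -1.37, Pnpla8 at -0.85 in WT, and Ddhd1, the one that rose, at 0.80 in KO. The list's median was 0.67 in WT and 0.79 in KO, and it includes esterases typical of liver, such as Ces3b. Of 11 partners of lipoprotein lipase, 2 were higher and 3 lower in WT, and 2 higher and 2 lower in KO. Angptl4, an inhibitor of lipoprotein lipase, rose by 1.42 in WT and 1.64 in KO, Apoc1 was at -1.85 and -1.20, Lmf1, which helps lipases fold, at -0.83 in WT, and Sdc1 at 1.44 in KO. The list's median was 0.17 in WT and 0.64 in KO.

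Among 24 genes of the hormonal control of lipolysis, 6 rose and 7 fell in WT and 6 rose and 4 fell in KO (medians -0.18 and 0.06). Ptger3, a prostaglandin receptor that restrains cAMP, was at -1.44 in WT and -1.23 in KO, and Gnas, the stimulatory G protein, at -1.10 in WT. Npr1, the natriuretic peptide receptor, rose by 1.38 in WT, and the lactate receptor Hcar1 by 1.86 and the adenylyl cyclase Adcy5 by 2.34 in KO. Of 14 droplet proteins, 7 fell and 1 rose in WT and 3 fell and 1 rose in KO (medians -0.39 and -0.23). Bscl2 (seipin) was at -1.47 and -1.05, Cidea at -1.36 in WT, Plin2 at -1.46 in KO, and Plin4 rose by 0.94 and 1.21.

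Of 15 genes of the lysosomal route that Lipa belongs to, 6 fell and 1 rose in WT and 3 fell and 1 rose in KO (medians -0.27 and -0.28). The protease Ctsd was at -1.26 and -0.89, Scarb2 at -0.66 and -0.60, the sterol carrier Npc2 at -0.84 in WT, and Npc1 at 0.63 in KO. Of 11 genes of fatty acid and glycerol handling, 4 fell and 1 rose in WT and 2 fell and 1 rose in KO (medians -0.76 and -0.35). Fabp5 was at -2.09 and -1.70, Gpd1 at -1.65 and -1.25, Fabp4 at -0.93 in WT, and the glycerol channel Aqp7 rose by 0.80 in KO. Of 12 transcription factors with lipase genes among their targets, 6 fell in WT, and 2 fell and 1 rose in KO (medians -0.37 and -0.20). Pparg was at -0.54, Cebpb at -0.74 and Nr1h3 at -0.49 in WT, and Mlxipl was at -1.06, Nr1h3 at -0.57 and Cebpa at 0.60 in KO.

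The genotype contrast in BAT called none of the 10 genes, beside 0.0887% of all genes at RT and 0% at TN. Changes ran from -0.92 (G0s2) to 0.12 at RT and from -0.27 (Lipa) to 0.48 (G0s2) at TN. Lipa in KO BAT at TN lay below every WT library (60.4 to 91.3 against 93.5 to 98.9 CPM), but the change of -0.27 had an SE of 0.16 and an adjusted p of 0.999. Pnpla2 at TN was at 0.36 (SE 0.17, adjusted p = 0.954).

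In eWAT none of the 10 genes was called by genotype or by housing. The background was 4.34% of all genes for genotype at RT, 0.586% for genotype at TN, 0% for housing in WT and 1.74% for housing in KO, and the interaction called 0%. For genotype, the nearest to the threshold were the lysosomal Lipa, lower in KO, and the carboxylesterases Ces1d and Ces1f, higher in KO. For housing, the nearest was Pnpla3, lower at TN in KO (adjusted p = 0.149, and 0.0498 by DESeq2). The medians of the 10 changes were 0.07 and 0.03 for genotype at RT and TN, and -0.21 for housing in either genotype.

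Ces1f stood at 71.8, 73.2, 90.2 and 53.2 CPM in WT eWAT at RT and at 312, 285, 203 and 154 CPM in KO. At TN it stood at 26.9, 28.3, 133 and 33.7 CPM in WT and at 71.0, 69.6, 224 and 72.7 CPM in KO. The genotypes did not overlap at RT, and at TN 1 library of each group, WT replicate 8 and KO replicate 5, lay far above its 3 fellows. The genotype change was 1.73 at RT (SE 0.56, adjusted p = 0.111) and 0.98 at TN (SE 0.56, adjusted p = 0.475), neither called. The RT change was called when WT TN replicate 8 was left out of the shared spread (adjusted p = 0.0251), when only the 8 libraries compared were fitted (1.75, SE 0.23, adjusted p = 0.00332) and by DESeq2 (adjusted p = 0.0202). Its adjusted p was highest, 0.263, without WT RT replicate 18, the library with epididymis markers.

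Ces1d followed the same libraries, at 875, 798, 981 and 625 CPM in WT and 1891, 1961, 1121 and 917 CPM in KO at RT. At TN it was at 462, 476, 1015 and 558 CPM in WT and at 779, 936, 1831 and 967 CPM in KO. The genotypes overlapped at both temperatures, and the change was 0.84 at RT (SE 0.33, adjusted p = 0.171) and 0.85 at TN (SE 0.33, adjusted p = 0.26). Without WT RT replicate 18 the RT change had an adjusted p of 0.355. Over the 16 eWAT libraries the log values of Ces1d and Ces1f had a Pearson r of 0.95, the highest of the 45 pairs of these genes. Few of their 50-base stretches occur letter for letter in another Ces1 gene, 1.08% of those of Ces1d and 0.301% of those of Ces1f. Matches that were shorter or differed in a base were not counted, so this does not measure how alike the genes are.

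Hepatocyte markers had counts in eWAT, and both carboxylesterases are abundant in liver, so their sum is given beside them. The summed hepatocyte markers at RT came to 1269 to 3233 CPM (WT) and to 2471 to 7402 CPM (KO). The library with the highest sum, KO RT replicate 16 at 7402 CPM, had 203 CPM of Ces1f, and the library with the most Ces1f, KO RT replicate 9 at 312 CPM, had a sum of 2471 CPM. In liver, Ces1f at 481 CPM on average came with sums of at least 61273 CPM. At TN the sums were 649 to 2148 CPM (WT) and 1146 to 2103 CPM (KO). The median change of the 8 markers between the genotypes was 0.91 at RT and -1.17 at TN, and none was called. The part of hepatocyte RNA in the carboxylesterase levels was not tested.

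**Figure D3:**
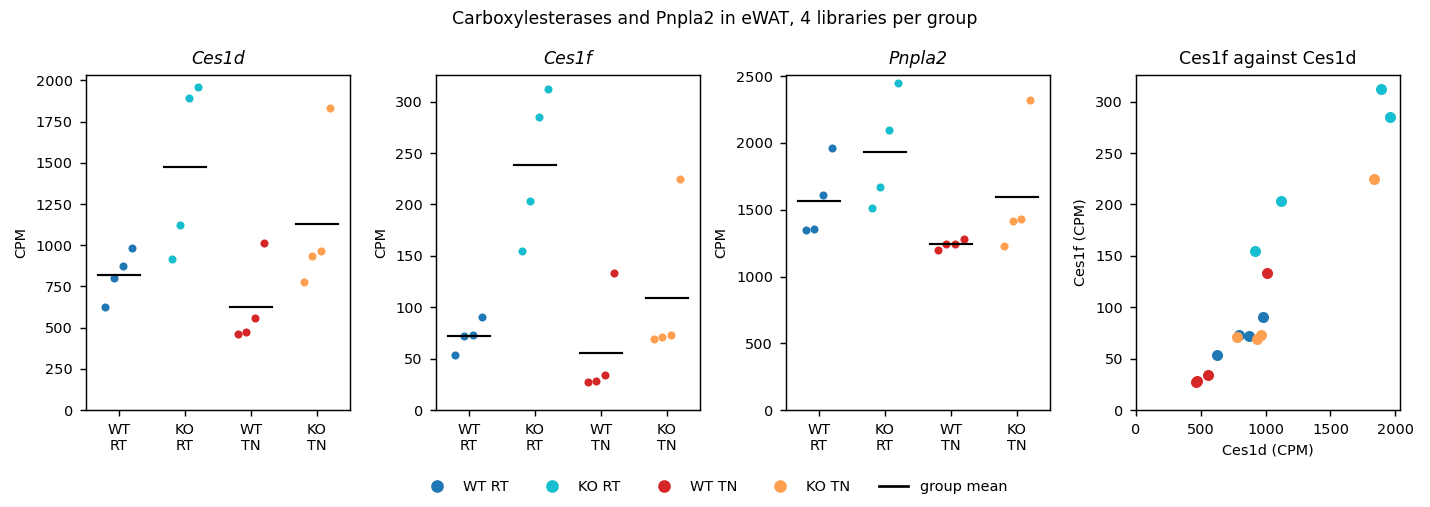
Ces1d, Ces1f and Pnpla2 in eWAT by group (CPM; points are libraries, bars are means), and Ces1f against Ces1d over the 16 libraries. WT TN replicate 8 (133 CPM) and KO TN replicate 5 (224 CPM) stand above their groups for Ces1f.

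Lipa in eWAT was at 69.7, 83.5, 76.3 and 108 CPM in WT at RT and at 56.0, 52.3, 64.4 and 55.4 CPM in KO, with no overlap. At TN it was at 155, 124, 76.4 and 90.8 CPM in WT and at 70.8, 71.7, 73.0 and 62.1 CPM in KO, again with every KO library lower. The changes of -0.56 (SE 0.18, adjusted p = 0.0798) and -0.69 (SE 0.18, adjusted p = 0.0802) both missed the threshold. They were called without WT TN replicate 8 (adjusted p = 0.047 and 0.0219) and by DESeq2 (0.0416 and 0.0106). The RT change had its highest adjusted p, 0.312, without WT RT replicate 18, the library with epididymis markers.

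Macrophage markers moved with Lipa in eWAT. At RT their sum spanned 731 to 1091 CPM (WT) and 524 to 728 CPM (KO), and 4 of 9 markers were called lower in KO. At TN it spanned 1138 to 1962 CPM (WT) and 852 to 1031 CPM (KO), with none called. WT TN replicate 6 had both the highest sum, 1962 CPM, and the highest Lipa, 155 CPM. The part of macrophage content in the level of Lipa was not tested. Over the 16 libraries Lipa and Ces1f had a Pearson r of -0.82, the lowest of the 45 pairs, and Lipa and Ces1d -0.81.

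**Figure D4:**
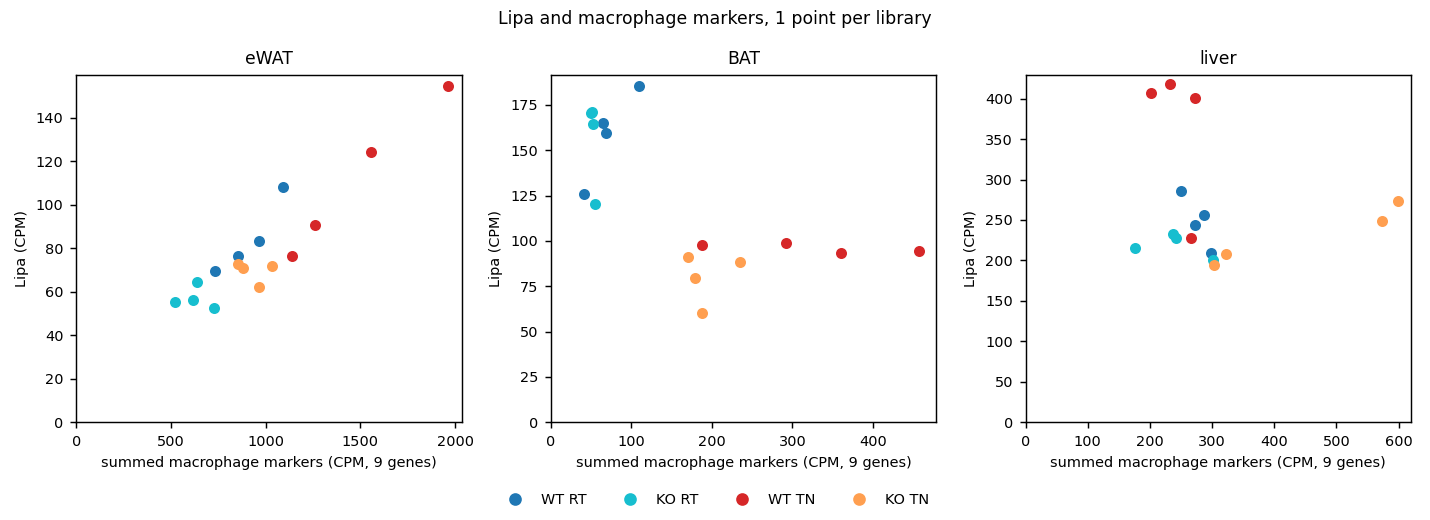
Lipa (y axis, CPM) against the sum of 9 macrophage markers (x axis, CPM) in eWAT, BAT and liver, with 1 point per library coloured by group. In eWAT the highest points in both are WT TN libraries (155 CPM of Lipa at a sum of 1962 CPM), whereas in BAT the TN libraries combine higher sums with lower Lipa.

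The fat cell lipases changed little in eWAT. Lpl ranged from 12207 to 22146 CPM over all 16 libraries, Lipe from 1410 to 2201 CPM and Abhd5 from 134 to 197 CPM. At RT, WT libraries averaged 1541 ± 189 CPM of Mgll and KO libraries 1235 ± 102 CPM (log2 fold change -0.32, SE 0.13, adjusted p = 0.178), with the groups apart, and 1262 ± 71.1 and 1282 ± 206 CPM at TN. The housing change of Mgll in WT was -0.29 (SE 0.13, adjusted p = 0.667), also with the groups apart, and that of Lipa in WT was 0.40 (SE 0.18, adjusted p = 0.664). Pnpla3 was the one member whose housing effect had an unadjusted p under 0.05 in both genotypes of eWAT. It went from 313, 222, 156 and 197 CPM at RT to 139, 142, 154 and 166 CPM at TN in WT (-0.56, SE 0.19, adjusted p = 0.497), and from 256, 232, 191 and 224 CPM to 102, 155, 166 and 196 CPM in KO (-0.54, SE 0.19, adjusted p = 0.149). Pnpla2 went from 1567 ± 289 to 1243 ± 32.5 CPM in WT (-0.33, SE 0.19, adjusted p = 0.808), and those groups did not overlap.

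Other lipid genes passed the test in eWAT. For genotype at RT, where 4.34% of all genes were called (593 lower and 228 higher in KO), 1 of 19 hydrolases was lower in KO, Nceh1 at -1.16, a cholesterol ester hydrolase, as were 2 of 11 lipoprotein lipase partners, Vldlr at -0.98 and Sel1l at -0.52, and 1 of 15 lysosomal genes, Ctsd at -0.80. Of 25 genes of hormonal control, 4 were lower, among them Adcy5 at -1.60 and Prkar2b at -0.47, and 1 was higher, Irs1 at 0.90. Of 12 transcription factors 1 was higher, Ppargc1a at 1.30, and no droplet gene (14 tested) and none of 11 fatty acid and glycerol genes was called. The medians of these 7 lists lay between -0.15 and 0.38, against -0.002 over all genes. At TN, beside 0.586% of all genes, the called genes of the lists were Insr at 0.49, Plin2 at -0.90 and Cebpb at -0.67. For housing in KO, beside 1.74% of all genes, 1 of 14 droplet genes, Bscl2 at -0.52 (adjusted p = 0.036), and 1 of 12 transcription factors, Cebpb at -0.63 (0.0337), were lower at TN, and for housing in WT no gene of the lists was called.

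In liver the genotype contrast at TN called 1 of the 10 genes, Lipa, beside 3.18% of all genes. Lipa was at 401, 419, 407 and 228 CPM in WT and at 195, 249, 274 and 208 CPM in KO. WT replicate 24 lay among the KO libraries, and the other 3 WT libraries lay above all of them. Lipa was 1.57-fold lower in KO (log2 fold change -0.65, SE 0.16, adjusted p = 0.0296). The call was strengthened without WT TN replicate 24 (-0.83, adjusted p = 0.00179), and it was lost without KO TN replicate 2, 4 or 22 (adjusted p of 0.0886, 0.0681 and 0.0798), without WT TN replicate 1, 6 or 7 (0.0837, 0.103 and 0.0833), and when only the 8 libraries compared were fitted (0.0568). Macrophage markers were higher in KO livers at TN, 303 to 599 against 202 to 273 CPM in sum, with 1 of 9 called. In the same contrast 1 of 8 lymph node and B cell markers was called higher in KO (sums of 15.9 to 39.6 against 8.84 to 15.2 CPM), as was 1 of 4 neutrophil markers tested (6.86 to 13.0 against 2.81 to 5.10 CPM). Of 5 mature adipocyte markers tested, 1 was called lower. It was Pparg, which is also in the list of transcription factors, and the adipocyte gene Adipoq had no counts in these livers. The part of any cell type in the level of Lipa was not tested.

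Ces1d showed the same library pattern in liver. It was at 1707, 1728, 1592 and 679.5 CPM in WT and at 873, 766, 751 and 945 CPM in KO at TN (-0.77, SE 0.27, adjusted p = 0.135), and it was called without WT TN replicate 24 (-1.01, adjusted p = 0.00929) or by DESeq2 (0.0357). Mgll was at 383, 319.8, 382 and 183 CPM in WT and at 197, 178, 189 and 233 CPM in KO (-0.67, SE 0.19, adjusted p = 0.0558). It was called without WT TN replicate 24 (adjusted p = 0.00343), without KO RT replicate 16 (0.0318) or by DESeq2 (0.02). Pnpla2 was at -0.38 (SE 0.17, adjusted p = 0.249), and the 10 changes had a median of -0.20 against 0.052 over all genes.

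At RT none of the 10 liver genes was called by genotype, beside 0.0853% of all genes, and the changes had a median of -0.14. Mgll nevertheless kept its groups apart, with WT libraries at 312, 293, 301 and 264 CPM and KO libraries at 159, 156, 257 and 186 CPM (-0.63, SE 0.19, adjusted p = 0.232). Abhd5 averaged 37.5 ± 2.49 CPM over the WT and 29.8 ± 4.88 CPM over the KO libraries (-0.33, SE 0.15, adjusted p = 0.439). The interaction called none of the 10 and 0% of all genes, so the genotype effects of Lipa (difference -0.47, SE 0.23, adjusted p = 0.682) and Ces1d (-0.80, SE 0.38, adjusted p = 0.682) were not shown to depend on housing.

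Housing called none of the 10 in liver, beside 0.0227% of all genes in WT and 0.114% in KO. The largest shift was in G0s2, from 145, 138, 87.0 and 67.5 CPM at RT to 216, 186, 428 and 144 CPM at TN in WT (1.15, SE 0.36, adjusted p = 0.412). In KO it went from 71.7, 67.4, 79.7 and 91.9 CPM to 318, 139.5, 163 and 220.3 CPM, with no overlap (1.44, SE 0.36, adjusted p = 0.129, and 0.0124 by DESeq2). Lipa (0.55, adjusted p = 0.377) and Ces1d (0.80, adjusted p = 0.444) had an unadjusted but no adjusted p under 0.05 in WT, and both were called without WT TN replicate 24 (0.0339 and 0.0459). Pnpla3 was low and scattered in liver, from 0.561 to 32.1 CPM, with both extremes in WT at TN.

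Among the other lipid genes of liver, those called for genotype at TN were lower in KO, beside 3.18% of all genes (325 lower and 235 higher). They were 3 of 13 droplet genes (Fitm2 at -1.05, Plin5 at -0.81 and Acsl1 at -0.74), 3 of 11 fatty acid and glycerol genes (Cd36, a fatty acid transporter, at -1.10, Acot2 at -1.37 and Gpd1 at -0.62), and 2 of 22 genes of hormonal control (Pde3b at -0.58 and Prkacb at -0.55). Of 19 hydrolases 1 was lower, Ddhd2 at -0.79, and of 12 transcription factors 1, Pparg at -1.24. No partner of lipoprotein lipase (12 tested) and no lysosomal gene (15 tested) was called. The list medians lay between -0.56 and -0.01.

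**Figure D5:**
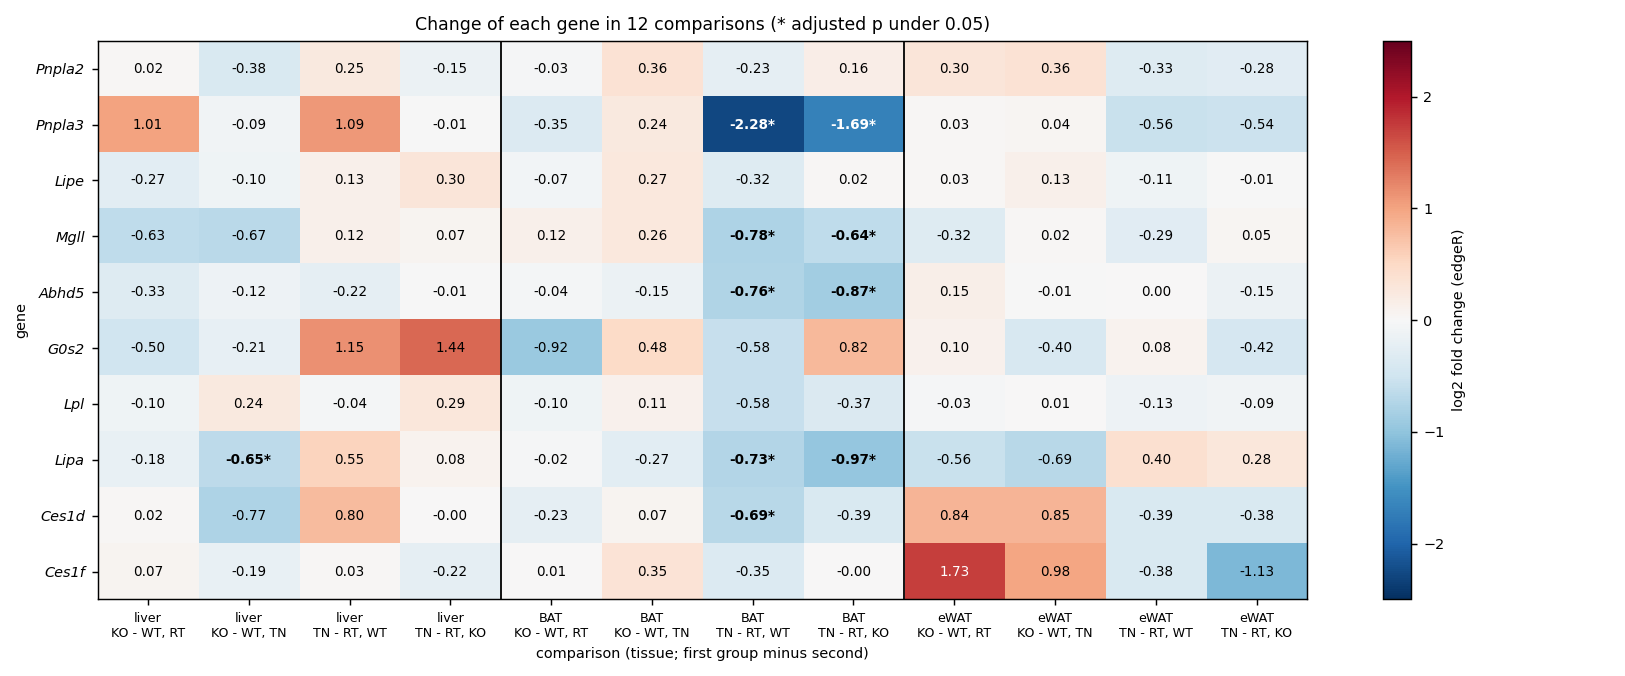
Log2 fold change of each gene (rows) in the 12 contrasts of genotype (KO minus WT) and housing (TN minus RT) within a tissue (columns); colour gives the size and an asterisk an adjusted p under 0.05. Of the 120 cells 10 carry an asterisk, 9 of them in the housing contrasts of BAT and 1 for Lipa in liver at TN.

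Whether an effect differed between tissues was tested in the fit over all 48 libraries. The housing effect, averaged over genotypes, was more negative in BAT than in eWAT for 3 of 10 genes, beside 16.5% of all genes: Lipa (-1.18, SE 0.17, adjusted p = 3.54e-06), Abhd5 (-0.73, SE 0.18, adjusted p = 0.0028) and Mgll (-0.59, SE 0.16, adjusted p = 0.00912). For Pnpla3 the difference of -1.42 (SE 0.59) was not called (adjusted p = 0.0935), though it was without liver WT TN replicate 1 (0.0455) or 24 (0.0428), whose spread enters the joint fit. It was more negative in BAT than in liver for 6 of 10, beside 16.8% of all genes: Pnpla3 (-2.53), G0s2 (-1.17), Lipa (-1.15), Ces1d (-0.92), Mgll (-0.80) and Abhd5 (-0.68). The call for G0s2 (adjusted p = 0.0244) was lost without BAT WT RT replicate 17 (0.0668), liver KO TN replicate 2 (0.0546) or liver WT TN replicate 7 (0.0652). Its BAT means at RT and TN were 323 and 216 CPM in WT but 171 and 302 CPM in KO, neither change called. In liver they were 109.5 and 243.5 CPM in WT and 77.7 and 210 CPM in KO. Lpl was at -0.59 in BAT against liver (SE 0.25, adjusted p = 0.11). These comparisons share the BAT libraries and did not pair libraries by replicate number. They include the BAT libraries rich in muscle markers and were not refitted without them. With the replicate number as a block, the call for Mgll in BAT against eWAT was lost (adjusted p = 0.0582). The calls for Ces1d (0.0926) and G0s2 (0.0767) in BAT against liver were lost too.

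The genotype effect, averaged over housing, was more positive in eWAT than in liver for 2 of 10 genes, Ces1d (1.23, SE 0.27, adjusted p = 0.00812) and Ces1f (1.42, SE 0.40, adjusted p = 0.0399), beside 2.83% of all genes. The call for Ces1f was lost in 21 of 53 alternatives, most of them the omission of 1 library. Its adjusted p ranged from 0.000851 without eWAT WT TN replicate 8 to 0.102 without eWAT KO TN replicate 5. Pnpla2 (0.52, SE 0.18, adjusted p = 0.112) and Mgll (0.51, SE 0.16, adjusted p = 0.0745) missed the threshold, and Mgll was called with DESeq2 (0.0343) and without eWAT KO TN replicate 21 (0.0478), liver KO RT replicate 16 (0.0257) or liver WT TN replicate 24 (0.0127). Between eWAT and BAT the genotype effect differed for none of the 10, beside 1.06% of all genes, with Ces1d at 0.92 (SE 0.27, adjusted p = 0.0903), Ces1f at 1.17 (SE 0.40, adjusted p = 0.171), Lipa at -0.48 (SE 0.17, adjusted p = 0.204) and Mgll at -0.33 (SE 0.16, adjusted p = 0.396). Ces1d and Ces1f were called without eWAT WT TN replicate 8 (0.0214 and 0.00695).

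The members varied together in BAT more than elsewhere. Over the 16 libraries of a tissue, the median Pearson r of the 45 pairs was 0.44 in BAT, 0.11 in liver and 0.03 in eWAT, and in each tissue the libraries share the housing and genotype contrasts. The most alike pair in BAT was Abhd5 and Lipa (r = 0.87), with Pnpla3 and Lipa at 0.83 and Mgll and Abhd5 at 0.83, and the least alike was Mgll and G0s2 (-0.13). In liver the extremes were Pnpla2 with Ces1d (0.82) and Pnpla3 with Ces1f (-0.53). These are descriptions across libraries of several groups.

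Over all 48 libraries, after each tissue's mean was removed, the genes most like each member among 8214 compared were the following. Pnpla3 was closest to Tlcd1 (r = 0.81) and to the sterol synthesis genes Sc5d (0.81) and Idi1 (0.80). Abhd5 was closest to Abhd6 (0.86), Tmed5 (0.84) and Abcd3 (0.84), and genes like Mgll included the peroxisomal gene Pex19 (0.81) and Pdxk (0.78). Lipa was closest to Tgoln1 (0.85), Pcyox1 (0.82) and the lysosomal protease Ctsd (0.80).

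Ces1d was closest to Fmo1 (0.89), Sqor (0.80) and Sfxn1 (0.79), and Ces1f to Acsm3 (0.82), Sqor (0.79) and Prodh (0.76). Pnpla2 was closest to Vegfb (0.79), Ces1d (0.77) and Aldh6a1 (0.73). The weakest likeness was found for Lipe, with Miga2 (0.62), the droplet gene Cidec (0.59) and Crat (0.57), for Lpl, with Psmd4 (0.62), BC004004 (0.59) and Plbd1 (0.58), and for G0s2, with Tor1a (0.58), Isoc2a (0.51) and Nup62 (0.51).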

How the data were processed

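The deposited files hold unnormalised whole-number counts, 1 file for each library. Per the submitters' processing notes, fastp, STAR 2.6.1d, featureCounts 1.5.0-p3 and GRCm38 (mm10) were used, and the annotation and strand setting are not given in the sources used here. Per the labels, total RNA was extracted with Maxwell RSC simplyRNA kits, and NEBNext Ultra libraries were sequenced paired-end on a NovaSeq instrument.

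Symbols came from a table based on GENCODE M21 and matched 52073 of 56748 identifiers (91.8%), which held at least 94.8% of the counts of each library. Each tissue (16 libraries, 4 groups) was fitted in R 4.3.3 with edgeR 4.0.16 (two-sided robust quasi-likelihood F tests after TMM scaling and a filterByExpr minimum of 10 counts), with 17594, 18032 and 18933 genes tested in liver, BAT and eWAT. Comparisons between tissues used 1 fit of all 48 libraries (21910 genes). Benjamini-Hochberg adjustment covered every gene of a fit, and the threshold was 0.05. The scripts were tested on simulated data. Printed levels are TMM-scaled CPM within a tissue, marker sums are plain CPM, and errors are SDs over 4 libraries.

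All 10 members are described in each tissue. A change has its statistics where the adjusted or unadjusted p was under 0.05 or the groups did not overlap, and other changes are given as ranges. Genes of the 7 pathway lists are named where called within a tissue, up to 3 per list and comparison with the lowest adjusted p and a mean of at least 1 CPM. Likeness is the Pearson r of log2(CPM + 1), with 3 genes given per member except for Mgll, where 1 is not reported here. The members, lists and tests were chosen with earlier results of these data known.

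Alternatives were RLE scaling, other filters on low counts, DESeq2 1.42.0, a fit of only the 8 libraries compared, each library left out, and the replicate number as a block. Leaving out the muscle-rich BAT libraries was added after seeing the data. It was run only in the fit of BAT, not in the fit of all 48 libraries. The labels use 23 replicate numbers, most of them in more than 1 tissue, and name no shared animal. Each number kept the same genotype and housing wherever it recurred. Deviations of same-numbered libraries had a median correlation of -0.12 between BAT and eWAT (11 pairs). It was 0.04 between BAT and liver (13 pairs) and 0.04 between eWAT and liver (11 pairs). For different numbers of the same genotype and housing the medians were 0.03, -0.01 and -0.01. These correlations cannot settle whether same-numbered libraries came from the same mouse. The reported fits did not pair the tissues.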

Additional observations from a re-analysis of the deposited data

Results flagged for a closer look

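In 8 of the 120 groups of 4 that were looked at, 1 library stood far from the other 3. Chance flags about 1 group in 20. In liver, WT TN replicate 24 was low for Lipa (228 CPM, against 401 to 419 CPM in its group) and for Ces1d (679.5 CPM, against 1592 to 1728 CPM). In eWAT, WT TN replicate 8 (133 CPM) and KO TN replicate 5 (224 CPM) were high for Ces1f, and WT RT replicate 15 was high for Lipe (2201 CPM). In BAT, KO TN replicate 5 was high for Abhd5 (80.3 CPM) and for Lpl (3881 CPM), and KO RT replicate 9 was low for Lipa (120.4 CPM).

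The housing effect (TN minus RT, averaged over genotypes) differed between tissues by the test of the difference itself. It was more negative in BAT than in eWAT for Mgll (-0.59), Abhd5 (-0.73) and Lipa (-1.18), and more negative in BAT than in liver for Pnpla3 (-2.53), Mgll (-0.80), Abhd5 (-0.68), G0s2 (-1.17), Lipa (-1.15) and Ces1d (-0.92). The genotype effect (KO minus WT, averaged over housing) was more positive in eWAT than in liver for Ces1d (1.23) and Ces1f (1.42). All are differences of log2 fold changes, so a negative value need not be a fall in BAT. None was refitted without the BAT libraries rich in muscle markers. The mean of G0s2 in KO BAT was 171 CPM at RT and 302 CPM at TN.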

How the results depend on the processing

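Of 82 member changes followed through the alternatives, 48 were called. Of these, 36 were called under every alternative and 12 were lost under at least 1. The 48 include differences between tissues, where 8, 10 and 9 members were called (BAT and eWAT, liver and eWAT, liver and BAT). Within a tissue, the calls kept under every alternative were Pnpla3, Mgll, Lipa and Ces1d for housing in WT BAT. The other calls within a tissue were each lost under at least 1. They were the 4 for housing in KO BAT, Abhd5 for housing in WT BAT and Lipa for genotype in liver at TN. Of the 34 not called, 14 were called under at least 1, and no sign reversed. The number of members called changed as follows, and the causes were not tested. All genes called, of those tested, are given in brackets. With DESeq2 it was 3 instead of 1 for genotype in liver at TN (1165 of 27989). It was 1 instead of 0 for housing in KO liver (377 of 27989) and 2 instead of 0 for genotype in eWAT at RT (1559 of 31029). It was 1 instead of 0 for genotype in eWAT at TN (713 of 31029) and for housing in KO eWAT (1229 of 31029). For the genotype effect of eWAT against BAT it was 1 instead of 0 (468 of 34849). With only the 8 libraries compared it was 0 for genotype in liver at TN (654 of 16240) and 1 for genotype in eWAT at RT (595 of 17091). With no filter on low counts it was 1 instead of 2 for the genotype effect of eWAT against liver (444 of 34947). Without the muscle-rich libraries it was 0 instead of 4 for housing in KO BAT (867 of 18565), where fewer samples were fitted. Leaving out each library in turn gave 0 to 3 for genotype in liver at TN, 0 to 2 for housing in WT liver and for genotype in eWAT at RT, 0 to 1 for genotype in eWAT at TN, 4 to 6 for housing in WT BAT, 3 to 4 for housing in KO BAT, 1 to 3 for the genotype effect of eWAT against liver and 0 to 2 for eWAT against BAT.

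The replicate number that the labels repeat across tissues, used as a replicate block, gave 8, 9 and 9 members different between BAT and eWAT, liver and eWAT, and liver and BAT, 2 and 4 for the housing effect of BAT against eWAT and liver, and 2 and 1 for the genotype effect of eWAT against liver and BAT. For the genotype effect of eWAT against BAT, 37 of all 21910 genes were called with the block. The calls lost were G0s2 between liver and eWAT (adjusted p = 0.142), Mgll for housing in BAT against eWAT (0.0582), and Ces1d (0.0926) and G0s2 (0.0767) for housing in BAT against liver, and the call gained was Ces1f for eWAT against BAT (0.0246). Same-numbered pairs correlated over 0.1 in 1 of 11, 1 of 13 and 1 of 11 cases, and pairs of different numbers in 16 of 53, 2 of 51 and 2 of 53. Depth did not limit the members in fat, where the lowest library held 12.4 CPM of any of them. Pnpla3 in liver had from 15 counts (0.561 CPM) to 1072 counts per library, so only its lowest libraries rest on few reads.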
